A study of Rattus norvegicus with 3 samples.

Results

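Cytochromes P450 were read across isolated renal proximal tubules of the rat. The genes were those whose symbol holds Cyp, a family number and a letter. The P450s of the main renal arachidonate and vitamin D pathways (Cyp2c23, Cyp2j3, Cyp2j4, every Cyp4a gene, Cyp24a1, Cyp27a1 and Cyp27b1) were left out, and only probe sets annotated to a single gene were taken. This gave 49 genes, measured by 54 probe sets, of 14217 named genes and 20826 probe sets with 1 gene symbol. Another 6 probe sets name several P450s each and were not members: 4 of them name a member gene with a close relative, and those of Cyp2b1 with Cyp2b2 and of Cyp2d1 with Cyp2d5 name none of the 49. Cyp51, the lanosterol demethylase, has no letter in its symbol and lies outside the rule. The separation by substrate is not strict: Cyp4f enzymes and Cyp2u1 can also oxidise arachidonate.

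The tubules came from male Sprague-Dawley rats aged 7 to 8 weeks, in a single group of 3 preparations with 1 array each (n = 3). Every animal received 250 units of heparin 30 min before it was killed, and the kidneys were flushed with 10 ml of cold saline buffer and 10 ml of a warm enzyme solution (2 mg/ml collagenase). Digestion of the cortex took 20 min, and tubules were collected on a 42.5% Percoll gradient. How many animals made up a preparation, and whether each had its own, is not in the labels, so the SD may be technical in part. With a single group, no difference between conditions was tested, and the precision is limited by having 3 arrays.

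P450s are heme enzymes that insert an oxygen atom into a substrate. Those of families 1 to 3 mostly act on drugs and other foreign compounds and are most abundant in liver, those of family 4 oxidise fatty acids at the end of the chain, and higher families carry out fixed steps in making steroids and bile acids and in breaking down retinoids. Microsomal P450s take electrons from P450 reductase, and mitochondrial P450s take them from ferredoxin. In kidney the proximal tubule is the segment best known for P450 activity.

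Signals were probe-set intensities on a linear scale, as deposited. Their median over all probe sets other than controls was 37.1, 37.4 and 34.9 on arrays 1, 2 and 3. Spearman's rho between arrays ran from 0.944 to 0.947 across 31042 probe sets, a correlation across probe sets with no p-value. For beta-actin, a measure of RNA integrity, the 3' control probe set was 3.85, 3.28 and 3.66 times as bright as the 5' one. For GAPDH, the other such control, it was 1.52, 1.52 and 1.40 times as bright. All 10 of the listed proximal tubule markers lay above the 75th percentile of every array, with means from 3443 to 10604. The 4 thick limb and distal tubule markers did so too, with means from 659.9 to 4942. The 7 hepatocyte markers had means from 1.59 to 68.3, and 1 of them exceeded the median of every array.

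Most of the P450s gave low signals, and a few gave signals far above the array median. Of the 49 genes, 10 (20.4%) exceeded the median of every array, against 61% of all named genes. They were Cyp2d2, Cyp2d4, Cyp2e1, Cyp2f4, Cyp2t1, Cyp2u1, Cyp4f1, Cyp4f6, Cyp4v3 and Cyp20a1. Cyp2d2, Cyp2e1, Cyp4f1, Cyp4f6 and Cyp20a1 also lay above the 75th percentile on all 3 arrays, which makes 5 genes against 36.4% of all named genes. At the other end, 13 genes lay below the 25th percentile on all 3 arrays, against 9.41% of named genes. Above the array median on no array were 36 genes, where 32.1% of named genes lay below it on all 3. The median percentile of the P450s among all named genes was 18.8, where all named genes have 50 by construction. Counted by probe set, 11 of 54 exceeded the median of every array, against 54.5% of all probe sets with 1 gene. Since affinity differs between probe sets, the order of genes by signal was not read as an order of abundance, and a low signal does not show that a transcript is absent.

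**Figure D1:**
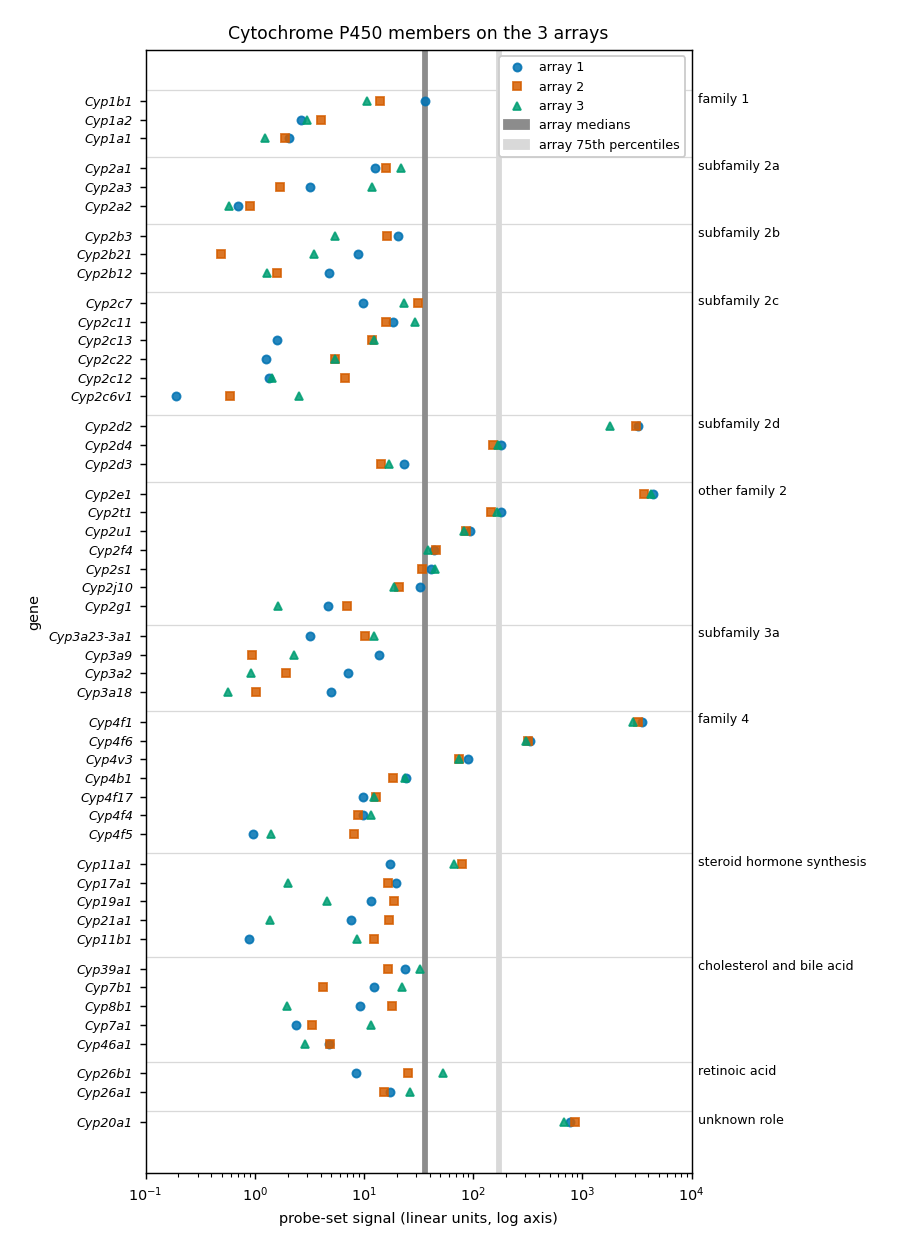
Signal of each of the 49 P450 genes on arrays 1, 2 and 3 (horizontal log axis, linear intensity units), grouped by subfamily or role, with 1 symbol per array. The dark and pale bands span the medians and the 75th percentiles of the 3 arrays. On all 3 arrays, 10 genes lie to the right of the median. Families 1, 2a, 2b, 2c (without Cyp2c23) and 3a have none there.

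**Figure D2:**
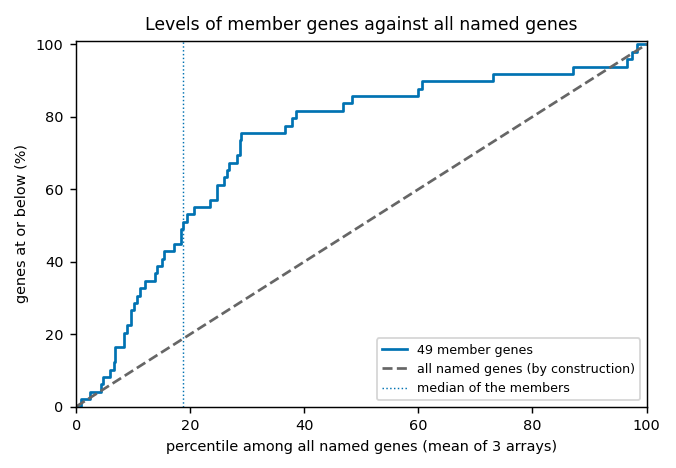
Share of genes at or below each percentile among all named genes (percentiles averaged over 3 arrays), for the 49 P450 genes (solid) and all named genes (dashed diagonal, by construction). The dotted line marks the median of the P450s at 18.8.

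Cyp2e1, which oxidises ethanol, acetaminophen and small solvents, gave 4462, 3655 and 4252 on arrays 1, 2 and 3 (4123 ± 418, mean and SD, n = 3). Its lowest value was on array 2, and its range over the arrays was 0.29 on the log2(signal + 16) scale after centring each array on its median. The gene had 1 probe set among the members, so this level has no second measurement. The RefSeq promoter of Cyp2e1 (GRCr8, chr1:205269717-205270016, plus strand, from 250 bases before to 50 after the start) is shown as that of the best-known drug oxidase among the bright members. It carries the letters of a TATA box, TATAAA, in capitals at positions -49 to -44 from the start.
Cyp2e1: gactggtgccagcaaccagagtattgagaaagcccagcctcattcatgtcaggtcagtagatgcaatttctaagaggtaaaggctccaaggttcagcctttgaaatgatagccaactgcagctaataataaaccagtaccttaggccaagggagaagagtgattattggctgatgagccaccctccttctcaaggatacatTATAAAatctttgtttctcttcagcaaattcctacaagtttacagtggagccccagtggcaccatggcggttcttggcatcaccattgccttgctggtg

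The Cyp2d subfamily, whose human member CYP2D6 clears many antidepressants and beta blockers, had 3 genes with very different signals. Cyp2d2, the rat debrisoquine hydroxylase, gave 3197, 3129 and 1807 (2711 ± 783). Arrays 1 and 2 were alike and array 3 was lower. Cyp2d4, described as a P450 of brain, gave 180.2, 152 and 169.8 (167 ± 14.3) with its brighter probe set and 51.97, 55.3 and 62.98 with the other. Both probe sets of Cyp2d4 exceeded the median of every array. Cyp2d3 gave 23.2, 14.2 and 16.8 (18.1 ± 4.62), below the median on every array. A probe set shared by Cyp2d1 and Cyp2d5, not a member, gave 28.8, 13.1 and 46.9 and was above the median on array 3 only.

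The range of Cyp2d2 was 0.75 log2 units, short of the line of 1 log2 unit (2-fold) used for a difference between preparations, and 4.02% of named genes above the median level ranged at least as widely. Its deviation from its own mean was 0.26, 0.23 and -0.49. On array 3, where Cyp2d2 was low, Cyp2d4 deviated by 0.07 and did not share the low value. Cyp2d3 deviated by less than 0.01. Its signals lay below every array median and near the added 16, which shrinks deviations, so nothing is read from Cyp2d3 here. The cause of the low value of Cyp2d2 was not tested.

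Cyp2d4, Cyp2d3 and Cyp2d2 lie near each other on chromosome 7, with 2 protein-coding genes between Cyp2d4 and Cyp2d3 and 0 between Cyp2d3 and Cyp2d2. Their promoters are printed to set neighbouring relatives with unlike signals, read by different probe sets, side by side. The windows are from RefSeq (GRCr8, minus strand, 250 bases before to 50 after the start), at chr7:115819232-115819531 for Cyp2d2, chr7:115802093-115802392 for Cyp2d3 and chr7:115771772-115772071 for Cyp2d4. Capitals mark matches on either strand to TATAAA, to GTTAAT (the core of the site of HNF1, a factor of liver and proximal tubule) and to 2 copies of AGGNCA with 1 base between them (the repeat that HNF4A, another such factor, binds).
Cyp2d2: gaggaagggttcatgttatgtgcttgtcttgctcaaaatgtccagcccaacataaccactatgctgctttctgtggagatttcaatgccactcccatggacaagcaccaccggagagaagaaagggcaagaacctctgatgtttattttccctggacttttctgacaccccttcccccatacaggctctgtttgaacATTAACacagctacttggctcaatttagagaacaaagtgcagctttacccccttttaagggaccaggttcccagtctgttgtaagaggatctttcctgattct
Cyp2d3: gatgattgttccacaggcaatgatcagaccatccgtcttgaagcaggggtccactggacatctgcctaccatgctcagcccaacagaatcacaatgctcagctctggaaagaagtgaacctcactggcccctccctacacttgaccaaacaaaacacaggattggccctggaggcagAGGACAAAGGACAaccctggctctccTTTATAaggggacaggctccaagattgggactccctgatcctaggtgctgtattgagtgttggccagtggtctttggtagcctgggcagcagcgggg
Cyp2d4: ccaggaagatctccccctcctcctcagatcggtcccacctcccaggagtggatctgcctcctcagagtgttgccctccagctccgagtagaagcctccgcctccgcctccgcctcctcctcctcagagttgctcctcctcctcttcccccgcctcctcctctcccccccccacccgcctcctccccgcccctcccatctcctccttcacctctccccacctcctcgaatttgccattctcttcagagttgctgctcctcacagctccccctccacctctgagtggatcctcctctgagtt

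The Cyp2d2 window held the GTTAAT letters on the minus strand at -53 to -48, and no TATAAA or HNF4A repeat. The Cyp2d3 window, of the gene with the low signal, held the HNF4A repeat at -73 to -61 and TATAAA on the minus strand at -47 to -42. The Cyp2d4 window held none of these letters and was richer in G and C, at 64% against 46% for Cyp2d2 and 54% for Cyp2d3. Over all 33469 promoters of this length, 14.2% held TATAAA, 7.45% GTTAAT and 0.415% the HNF4A repeat. Among the 38 promoters of member genes in the table, 12, 4 and 1 held them. The 3 motifs do not overlap in these windows, and a match describes letters only. Hnf4a itself, the gene of that factor, gave 5888, 5176 and 5400.1.

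The other members of family 2 included 3 further genes above the median of every array. Cyp2t1, a little-studied enzyme, gave 178, 144 and 167 (163 ± 17.4), below the 75th percentile of each array. Cyp2u1, a fatty acid hydroxylase of brain and thymus, gave 93.8, 86.7 and 82.02 (87.5 ± 5.92). Cyp2f4, which activates naphthalene in lung, gave 43.7, 45.8 and 38.5 (42.7 ± 3.78). These 3 genes varied little, with ranges of 0.29, 0.10 and 0.11 log2 units, and Cyp2f4 lay just above the median. Just outside the line, Cyp2s1, a P450 of epithelia outside the liver, gave 41.01, 33.7 and 44.3 and was below the median on array 2 only. Cyp2j10 gave 32.4, 20.8 and 18.7, and Cyp2g1, a P450 of the olfactory lining, gave 4.64, 6.95 and 1.63, both below the median on all 3 arrays.

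Cyp2f4 and Cyp2t1 are adjacent on chromosome 1, at one end of a cluster with Cyp2s1, Cyp2b3, Cyp2b21, Cyp2b12, Cyp2g1, Cyp2a3, Cyp2a1 and Cyp2a2. Of the 10 cluster members, those 2 exceeded the median of every array, against 61% of all named genes. The order is that of the GRCr8 gene table.

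The member genes of the classical drug-metabolising subfamilies outside Cyp2d and Cyp2e were low throughout. Cyp2c23, which the rule leaves out of subfamily 2c, gave 10004, 8313 and 9536. Of the 19 genes of families 1, 2a, 2b, 2c and 3a, grouped together after their values were seen, all 19 lay below the median of every array, against 32.1% of all named genes, and 10 lay below the 25th percentile on all 3, against 9.41%. No test of the group was made. In family 1, induced by dioxins and tobacco smoke, Cyp1a1 gave 2.06, 1.87 and 1.24 and Cyp1b1 gave 36.4, 14.04 and 10.6. Array 1 held the highest value of Cyp1b1, and all 3 arrays were below the median.

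In subfamily 2a, Cyp2a1, a testosterone 7-alpha-hydroxylase, gave 12.7, 15.8 and 21.6, and Cyp2a2 gave 0.701, 0.9001 and 0.579. A probe set shared by Cyp2a1 and Cyp2a2 gave 24.6, 26.6 and 33.2. In subfamily 2b, whose liver forms phenobarbital induces, Cyp2b3 gave 20.6, 16.2 and 5.47 and Cyp2b12 gave 4.75, 1.58 and 1.29. The probe set shared by Cyp2b1 and Cyp2b2, the main phenobarbital-inducible forms, gave 33.002, 27.2 and 9.896 and was not a member. All of these stayed below the array median on every array.

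In subfamily 3a, the broad drug oxidases of liver and gut, the 4 genes had means from 2.21 to 8.58. Cyp3a23-3a1, with the brightest probe set, gave 3.204, 10.3 and 12.3, and Cyp3a18, with the dimmest, gave 5.02, 1.03 and 0.574. Array 1 was lowest for Cyp3a23-3a1 and highest for Cyp3a18, Cyp3a2 and Cyp3a9, at signals of which most lay below the 25th percentile. In subfamily 2c, without Cyp2c23, the 6 genes had means from 1.10 to 21.4, and the dimmest probe set, of Cyp2c6v1, gave 0.189, 0.595 and 2.53. Cyp2c6v1 and Cyp2c13 were read by the 2 member probe sets whose suffix marks possible sharing between transcripts. Of the genes not yet given, Cyp3a9 gave 13.8, 0.941 and 2.26 and Cyp2a3 gave 3.23, 1.702 and 11.9, each with a single higher array that sets its mean. Cyp2b21 gave 8.75, 0.488 and 3.49, Cyp1a2 2.66, 3.996 and 3.01 and Cyp2c22 1.28, 5.3999 and 5.39.

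Several liver P450s of the rat differ by sex under growth hormone control, and all animals here were male. Of 4 genes known as male-predominant in liver, Cyp2c11, the main testosterone hydroxylase of male rat liver, gave 18.4, 15.8 and 29.1. Cyp2c13 gave 1.61, 11.7 and 12.2, Cyp2a2 is given above and Cyp3a2 gave 7.12, 1.94 and 0.932. None of these reached the array median on any array, where 32.1% of all named genes lay below it on all 3. Of 3 genes known as female-predominant, Cyp2c12 gave 1.34, 6.75 and 1.44 and Cyp2c7 gave 9.85, 31.4 and 23.03, with Cyp2a1 as above. The 3 genes were below the median on every array too, so both lists lay in the low range, with median percentiles of 10.5 and 23.5. Among the 7 hepatocyte markers, Alb gave 23.3, 14.6 and 16.7 and Otc 1.701, 2.11 and 0.977. Fga gave 71.7, 60.8 and 72.3 and was the 1 marker of the 7 above the median of every array. Apob gave 74.3, 43.7 and 25.1, above the median on arrays 1 and 2.

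Family 4 without Cyp4a split by gene. Cyp4f1, which oxidises leukotriene B4 and other fatty acids at the chain end, gave 3504, 3203 and 2925 (3211 ± 289.5). Cyp4f6, its neighbour with 0 protein-coding genes between, gave 333, 319 and 302 (318 ± 15.3). Both were highest on array 1 and lowest on array 3, with narrow ranges of 0.20 and 0.07 log2 units. The other Cyp4f genes were below the median on all 3 arrays. Cyp4f4 gave 9.82, 8.72 and 11.6, Cyp4f17 gave 9.88, 12.7 and 12.3 and Cyp4f5 gave 0.955, 8.14 and 1.41. All 5 measured Cyp4f genes lie in a cluster on chromosome 7. Of them, 2 lay above the median of every array, against 61% of all named genes.

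Cyp4v3, the rat relative of a fatty acid hydroxylase of the retina, depended on the probe set. The brighter set gave 89.3, 74.7 and 73.7, above the median of every array, and the other gave 4.55, 6.35 and 1.79, below it on all 3. The dimmer set lay below the 25th percentile on all 3 arrays, so no size of the difference is given. For Cyp2d4, both of whose sets exceeded the median, the difference on the log2(signal + 16) scale was 1.33 ± 0.17 (SD, n = 3), larger than the spread between arrays. Which probe set better represents its gene was not tested. Cyp4b1, which activates lung toxicants such as ipomeanol, gave 24.4, 18.6 and 23.6, with all 3 arrays below the median.

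**Figure D3:**
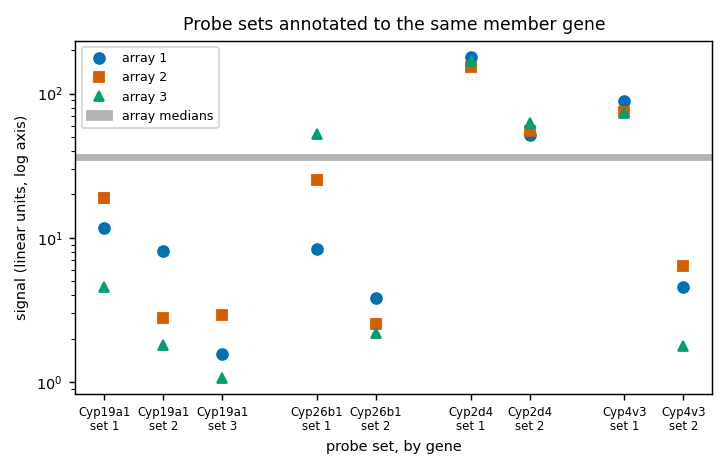
Signal of each probe set (vertical log axis, linear intensity units) for the 4 member genes with more than 1 probe set, ordered from brighter to dimmer, with 1 symbol per array. The grey band spans the array medians, and the sets of Cyp4v3 fall on opposite sides of it on all 3 arrays.

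Genes of steroid hormone synthesis had low signals. Of 5 genes, 0 exceeded the median of every array, against 61% of all named genes, and the median percentile was 18.3. Cyp11a1, the mitochondrial enzyme that cuts the cholesterol side chain, gave 17.5, 78.9 and 67.3. It lay below the median on array 1 and above it on arrays 2 and 3, a range of 1.497 log2 units. Cyp11b1, the adrenal 11-beta-hydroxylase, gave 0.877, 12.3 and 8.69, also lowest on array 1. The 3 probe sets that Cyp11b1 shares with Cyp11b2, Cyp11b3 or both did not have a common order: they gave 2.95, 8.68 and 10.3, then 10.3, 2.28 and 8.58, then 1.48, 0.234 and 1.67, all below the median of every array. Cyp17a1, the 17-alpha-hydroxylase, gave 19.8, 16.5 and 2.03, and Cyp21a1, the 21-hydroxylase, gave 7.54, 16.8 and 1.39. These 2 genes were lowest on array 3, not on array 1. Cyp11b1 and Cyp21a1 lay below the 25th percentile on 2 arrays each, and Cyp17a1 on array 3. The probe sets shared by Cyp11b1 did so on 2 or 3 arrays. Nothing is read from the order of arrays at such signals. Cyp19a1, the aromatase, had 3 probe sets, all below the median on all 3 arrays, and the brightest gave 11.7, 18.8 and 4.54.

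Adrenal cortex lies next to the kidney, and 4 of its 5 listed markers were measured. Their summed signal was 151, 113 and 153, and 1 of 4 exceeded the median of every array. Star, which delivers cholesterol to Cyp11a1, gave 2.79, 10.3 and 11.7, Nr5a1 gave 23.03, 4.72 and 7.69 and Hsd3b1 gave 25.4, 16.97 and 30.2. The part of adrenal tissue in the Cyp11a1 values was not tested. Mrap, the marker above the median, is also known from fat tissue and gave 100.1, 81.1 and 103.

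Genes of cholesterol breakdown and bile acid synthesis were low as well. Of these, 0 of 5 lay above the median of every array, against 61% of all named genes. Cyp39a1, an oxysterol hydroxylase, gave 23.7, 16.5 and 32.5 with the brightest probe set of the group, and Cyp46a1, the cholesterol hydroxylase of brain, gave 4.79, 4.85 and 2.896 with the dimmest. Cyp7a1, the rate-limiting enzyme of bile acid synthesis, gave 2.38, 3.33 and 11.6, and Cyp8b1, needed for cholic acid, gave 9.22, 18.1 and 1.99. Cyp7b1, another oxysterol hydroxylase, gave 12.4, 4.24 and 22.1. None of them reached the median on any array. Outside the rule, Cyp51 of cholesterol synthesis gave 789.9, 698 and 625.

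The retinoic acid hydroxylases differed in their spread. Cyp26a1 gave 17.3, 15.2 and 26.4, with all 3 arrays below the median. Cyp26b1 gave 8.43, 25.1 and 52.6 with its brighter probe set, above the median on array 3 only, and 3.86, 2.51 and 2.17 with the other. The brighter set ranged by 1.55 log2 units. The other lay below the 25th percentile on all 3 arrays, so nothing is read from its not following the brighter set. Endothelial markers had the same order of arrays as the brighter set: Pecam1 gave 42.8, 74.2 and 137, Plvap 185, 286 and 396 and Kdr 232, 234 and 341, with a summed signal of 461, 595 and 875 for the 3 listed, all above the median of every array. Of 3 collecting duct markers 2 exceeded the median of every array, with a summed signal of 209, 204 and 334 and Aqp2 at 4.25, 4.796 and 32.9. Of 3 measured podocyte markers 1 did so, with a summed signal of 137, 169 and 139. The rising order of arrays was not particular to endothelial markers. Of the collecting duct markers, Aqp2 and Atp6v1g3 (63.3, 73 and 106) had it and Hsd11b2 did not. Of the white cell markers, Cd3d and Cd163 had it at low signals, and Ptprc, Lck and Cd74 did not. The measured podocyte markers did not have it. The part of other cell types in the Cyp26b1 values was not tested. Cyp20a1, a widely expressed P450 of unknown substrate, gave 768, 848 and 672 (763 ± 88.1), highest on array 2.

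Spread was compared as the range of a gene over the 3 arrays. Of 7 member genes above the median level of named genes, 0 ranged by 1 log2 unit or more, against 1.39% of named genes above that level. With 7 genes, nothing is read from that 0. Cyp2d2 had the widest range of the 7. With no filter on level, Cyp11a1 and Cyp26b1 did so, 2 of 49, against 4.46% of all named genes. The median range of the P450s was 0.39 log2 units against 0.34 for all named genes, and 0.26 against 0.28 among those above the median level. Cyp2e1, Cyp2t1 and Cyp2d4 were lowest on array 2 (for Cyp2d4 with its brighter probe set only, since the other was lowest on array 1), with deviations of -0.19, -0.18 and -0.15. On that array 5360 of 7108 named genes above the median level lay below their own mean, so the sign was shared with most such genes. The median deviation of those named genes there was -0.08, smaller in size than the deviations of Cyp2e1, Cyp2t1 and Cyp2d4. The median deviation of the 49 P450s was 0.01, -0.03 and 0.01 on arrays 1, 2 and 3, and that of all named genes was 0.04, -0.06 and 0.02.

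**Figure D4:**
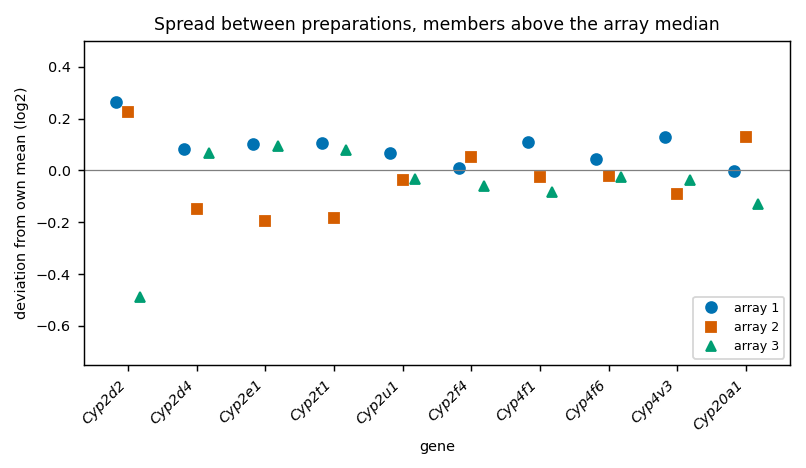
Deviation from the gene's own mean over the 3 arrays (vertical axis, log2(signal + 16), centred on each array median) for the 10 P450 genes above the median of every array, with 1 symbol per array. Cyp2d2 on array 3 is the point farthest from 0, at -0.49.

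The genes that serve P450s were examined as a fixed list of 22, of which 21 were measured and 15 exceeded the median of every array, against 61% of all named genes; nothing particular to the list is read from this. In electron supply, 6 of 6 did so. Por, the P450 reductase, gave 1211, 705 and 953, lowest on array 2. Cyb5a, microsomal cytochrome b5, gave 3746, 3239.8 and 3459.7, Fdx1, the mitochondrial ferredoxin, gave 1759, 1659 and 1794 and Pgrmc1, a heme-binding partner, gave 6379, 5731 and 6002. These lay far above the 75th percentile of every array. Cyb5b (1219 ± 36.7) and Cyb5r3 (1011 ± 167), the mitochondrial cytochrome b5 and the cytochrome b5 reductase, did so too.

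In heme turnover, 5 of 5 exceeded the median of every array, against the same 61%. Alas1, the first enzyme of heme synthesis, gave 504, 400.3 and 377, Alad 1443, 1314 and 1483 and Fech, which inserts iron, 442, 422 and 482. Hmox2, the constitutive heme oxygenase, gave 659.6, 511 and 572, and Hmox1, the inducible form, gave 39.9, 51.4 and 36.3. Hmox1 lay just above the median. Ephx1, which opens the epoxides that P450s make, gave 2169, 1496 and 1794.

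Among 9 listed genes of regulation and steroid supply, Star included, Hnf4a, Nr1i2 and Rxra exceeded the median of every array. Nr1i2, the drug receptor PXR that induces Cyp3a genes in liver, gave 138, 157 and 157. Nr1i3, the receptor CAR of Cyp2b genes, gave 13.9, 5.85 and 1.15, below the median on every array. Ahr, the dioxin receptor of family 1, gave 23.2, 32.1 and 53.6, and its partner Arnt gave 40.9, 34.6 and 37.1. Ahr was above the median on array 3 only, and Arnt on arrays 1 and 3. Rxra gave 55.2, 46.1 and 63.4 and Nr0b2, a repressor of bile acid genes, gave 19.5, 22.2 and 16.8.

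**Figure D5:**
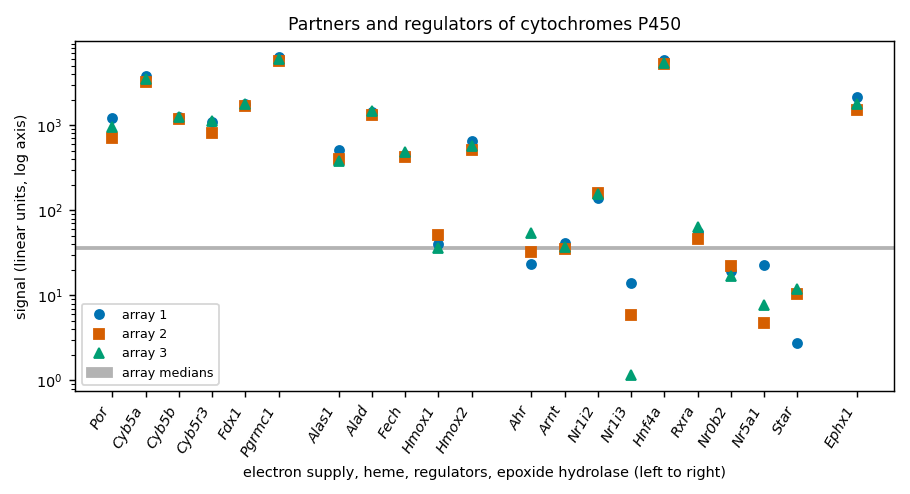
Signal of the 21 measured partner and regulator genes on arrays 1, 2 and 3 (vertical log axis, linear intensity units), in the order electron supply, heme, regulators and steroid supply, epoxide hydrolase. The grey band spans the array medians: every electron supply and heme gene lies above the median of its array, and Nr1i3, Nr0b2, Nr5a1 and Star lie below it on all 3 arrays.

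For reference, 6 of the 8 measured P450 genes that the rule leaves out exceeded the median of every array, and 4 of 8 exceeded the 75th percentile, against 61% and 36.4% of all named genes. The 4 were Cyp2c23, Cyp4a1, Cyp4a3 and Cyp4a8. Cyp4a8, a fatty acid hydroxylase, gave 4323, 1941 and 4316, a range of 1.22 log2 units. It was low on array 2, whereas Cyp2d2 was low on array 3. The difference between these 8 genes and the 49 was not tested.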

How the data were processed

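Per the labels' protocols, Trizol was used for total RNA and Affymetrix methods for biotin labelling of cRNA. The deposited values are linear probe-set intensities, which the authors made with software and scaling not given in the sources used here; the values were used as deposited. The 57 control probe sets were left out. Gene symbols came from the platform annotation: 20826 probe sets named 1 gene, 436 several and 9780 none. All 54 member probe sets matched the GRCr8 RefSeq gene table, which changed 0 symbols. Each gene took its probe set of highest mean signal. For comparisons between arrays, log2(signal + 16) was centred on each array's median. Analysis used Python 3.11.15, pandas 2.3.3 and numpy 2.4.6. A run on simulated data tested whether planted ranges between arrays were found. It did not cover the counts, role groups or motif matches. No detection calls were used. With 1 group there was no test; counts over all members are given beside those over all named genes, and those of role groups and partner lists describe a few genes each.

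Values on each array were given for genes above the 75th percentile on all arrays, the highest and lowest of each role group and the sex-dependent genes, and any other member or listed partner could be named. Members and lists were chosen with earlier results of these data known. Alternatives changed the probe set rule, line, filter, pseudocount and scaling, and left out each array.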

Additional observations from a re-analysis of the deposited data

How the results depend on the processing

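The count of 10 member genes above the array median on all arrays became 22 with the line at the 25th percentile. It became 5 with the line at the 75th. Of named genes, 75.96% and 36.4% passed these lines. By probe set, 11 became 23 and 5, where 14876 and 6036 of 20826 probe sets with 1 gene passed. The median percentile of 18.8 became 20.4 with all probe sets of a gene averaged and 17.1 over the 24 members left without the lowest 20% of genes. Leaving out each array in turn gave 18.3 to 21.2, with 10 to 11 genes and 11 to 12 probe sets above the median. In those runs 61.97% to 62.2% of all named genes passed, and 11566 to 11634 of 20826 probe sets with 1 gene. The count of members ranging by 1 log2 unit was 0 in every alternative except no filter on level, which gave 2. The median deviation became 0.0748 on array 1 with a pseudocount of 1. It became -0.0151 on array 3 under quantile normalization, and without centring 0.00021 on array 2 and -0.0344 on array 3; these values are all near 0 and have no steady sign. The causes were not tested, and lines and filters change the genes counted by construction. With the mean of all probe sets, Cyp2d4 fell to 112 and Cyp4v3 to 41.7, since their dimmer sets entered. Without array 1, Cyp11a1 lay above the median on both arrays left. Unknown scaling and the lack of detection calls limit what low signals show. No paired analysis was possible because there was 1 group.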
